A study of Anas platyrhynchos with 12 samples.

Results

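The troponin genes of duck breast muscle were followed here as the isoforms of troponin C, troponin I and troponin T. The members were the rows whose symbol is TNNC1, TNNC2, TNNI1, TNNI2, TNNT1, TNNT2 or TNNT3, and 6 of these 7 symbols had a row, with 1 row each, among 16433 gene models. TNNT1, the slow skeletal troponin T, was not analysed here. RNA was sequenced from the breast muscle of F2 ducks (Anas platyrhynchos) taken at 42 days of age. The HB group holds 6 samples with a high breast muscle ratio and the LB group 6 with a low ratio, and the series set these groups against each other to find genes linked to growth. All birds were kept under the same conditions, per the labels' protocols. The labels name no treatment, sex or parental line of the cross, and they do not say that each sample came from its own bird, so a p-value reflects only how these samples spread, which may be technical in part. A piece of muscle holds more than muscle fibres, and fewer fibres of a type cannot be told apart from less RNA per fibre.

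Troponin sits on the thin filament of striated muscle and couples calcium to contraction. Troponin C binds calcium, troponin I holds back the interaction of actin with myosin, and troponin T ties the complex to tropomyosin. In birds and mammals the forms of each subunit found in fast, slow and cardiac muscle come from separate genes, except that slow and cardiac muscle share a troponin C. TNNC2, TNNI2 and TNNT3 encode the fast skeletal forms, TNNC1 encodes the shared slow and cardiac troponin C, TNNI1 encodes the slow skeletal troponin I, and TNNT2 encodes the cardiac troponin T, which is also made in embryonic skeletal muscle. The breast muscle of birds that fly is largely built of fast fibres.

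Values are given as FPKM, the reads of a gene scaled to the length of its model and to the counted reads of its library. Levels of different genes can be compared as far as the model lengths are right, which was not tested. The length of TNNI1, 2976 bases, was the longest of the members. The libraries held 24090771 to 42503751 counts. Of the skeletal muscle markers listed, 2 of 6 had a row, the skeletal actin ACTA1 with 27044 to 58166 FPKM and CAV3 with 55.0 to 196 FPKM. Library HB-4 went against its label for genes of limb position, which were looked up after the data had been seen. HOXC10, a homeobox gene of the hindlimb and trunk, held 27.1 FPKM in HB-4 and 0 counts in each of the other 11 libraries. The hindlimb genes PITX1 and TBX4 held 3.54 and 1.59 FPKM in HB-4, and at most 0.74 and 0.03 FPKM elsewhere. TBX5, the forelimb gene, had 0 counts in HB-4, which allows up to 3 counts, and 14 to 79 counts elsewhere. The tissue of origin of HB-4 was not tested, and the group differences that this library moves most are given with and without it.

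The fast isoforms and TNNC1 were among the most abundant transcripts, and the slow troponin I and the cardiac troponin T were low. By mean FPKM over the 12 libraries TNNT3 ranked 9th of all gene models, TNNI2 15th, TNNC2 17th and TNNC1 37th, with means of 7206, 4756, 3907 and 1704 FPKM. TNNI1 and TNNT2 ranked 5221st and 6817th, with means of 7.79 and 4.72 FPKM. The order of the levels was stable within libraries. TNNT3 lay above TNNI2 in 12 of 12 libraries, TNNI2 above TNNC2 in 11 of 12 (HB-5 had the other order), TNNC2 above TNNC1 in 12 of 12 and TNNC1 above TNNI1 in 12 of 12. The neighbours at the low end had no fixed order in FPKM. TNNI1 lay above TNNT2 in 9 libraries and below it in 3, which were HB-4, HB-5 and HB-6. In these 3 libraries the counts had the other order, with 268, 528 and 912 of TNNI1 against 155, 244 and 774 of TNNT2. The FPKM order there thus depends on the model lengths. Together the 6 genes took 1.55% to 2.06% of the counts of a library.

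**Figure D1:**
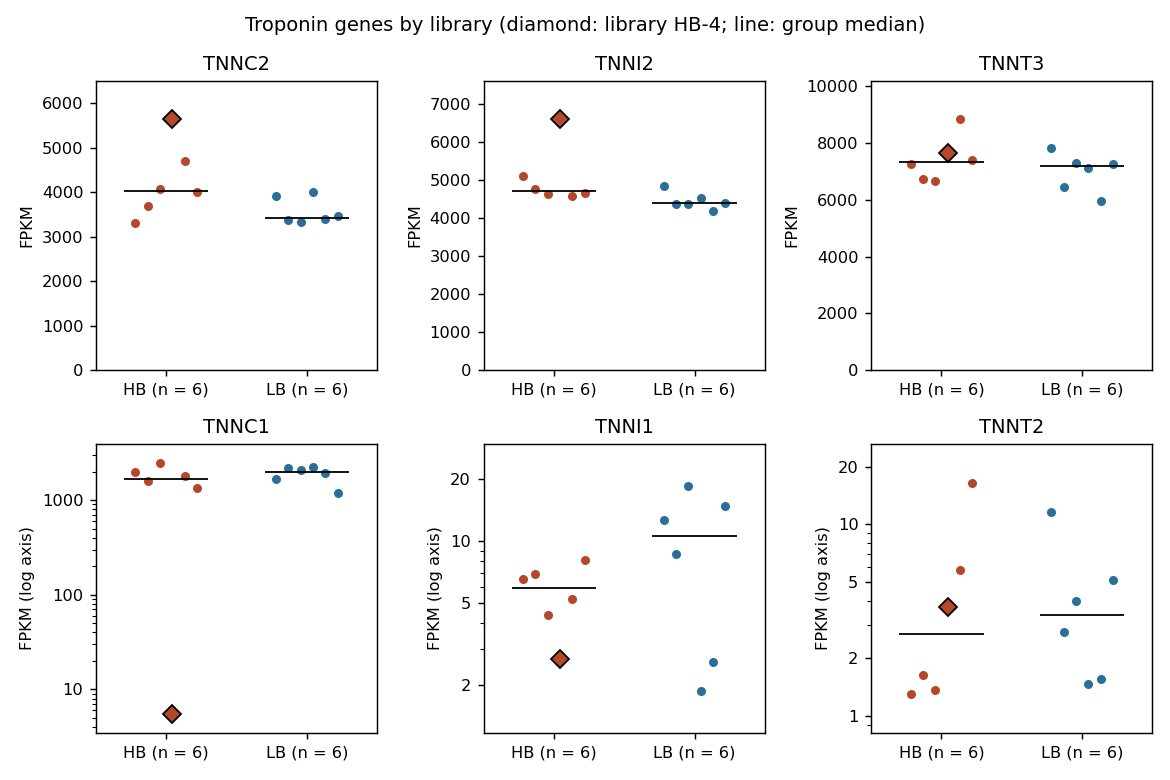
FPKM of each troponin gene in the 6 HB and 6 LB libraries, with a linear axis from 0 for the fast genes and a log axis for TNNC1, TNNI1 and TNNT2. The groups overlapped for all 6 genes, and HB-4 (diamond) held 5.56 FPKM of TNNC1, where the other 11 libraries held 1186 to 2468.

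Among the genes analysed, troponin C was the subunit with a large share of the slow and cardiac form, and HB-4 was the exception. The slow share of troponin T is not known, because TNNT1 was not analysed. TNNC1 (gene number 101799009, model length 631 bases) held 5.56 FPKM at the lowest, 1687 at the median and 2468 at the highest in HB, and 1186, 1993 and 2219 FPKM in LB. The value of 5.56 FPKM belonged to HB-4, and the next HB library held 1341 FPKM. The TNNC1 level of HB-4 was 214-fold under the lowest and 346-fold under the median of the other 11 libraries. In reads, HB-4 had 117 counts of TNNC1 where the others had 25963 to 66178. Among the 9944 tested genes that carry a symbol and average 1 FPKM or more, TNNC1 had the second largest deficit of HB-4 against the median of the other libraries, at -8.43 on the log2 scale.

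TNNC2 (gene number 101802822, 804 bases) was highest in the same library. It held 3314 FPKM at the lowest, 4035 at the median and 5646 at the highest in HB, and 3319, 3427 and 3998 FPKM in LB. The highest value was that of HB-4, followed by HB-5 with 4703 FPKM and HB-3 with 4058 FPKM, and the lowest HB library lay just under the LB range. The summed troponin C level of HB-4, 5652 FPKM, lay within the 4646 to 6525.5 FPKM of the other 11 libraries. TNNC1 made up 25.1% to 39.4% of the summed level in these 11 libraries and 0.0983% in HB-4. TNNC1 and TNNC2 encode similar proteins, so reads could be split between their models. In HB-4 the counts of TNNC1 came to 0.0772% of those of TNNC2, and in the other libraries to 26.2% to 51.0%. As a share of troponin C counts, TNNC1 had 0.0772% in HB-4, with a 95% exact Clopper-Pearson interval of 0.0638% to 0.0925% that covers counting error only.

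**Figure D2:**
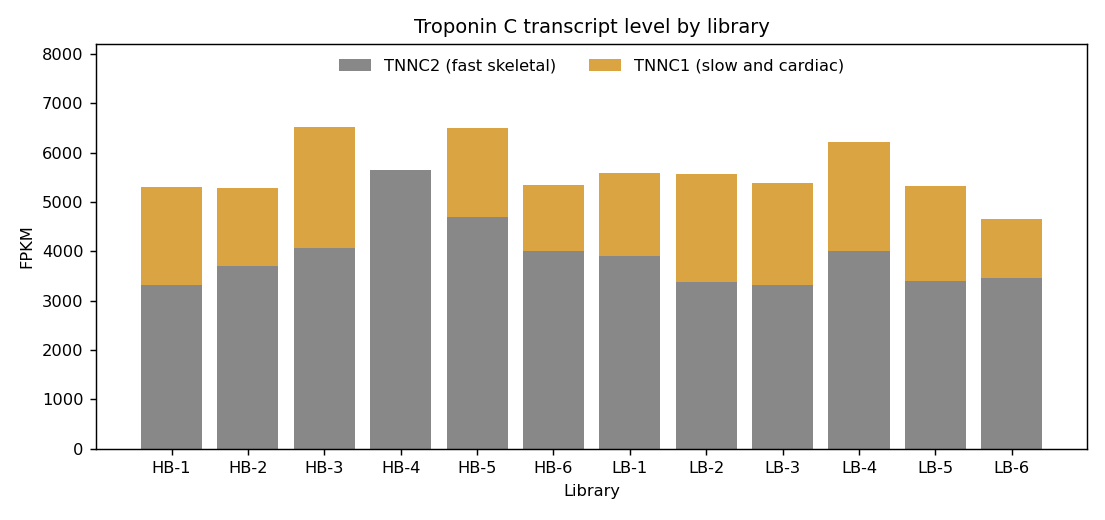
Summed troponin C level in FPKM for each library, divided into TNNC2 (grey) and TNNC1 (yellow). TNNC1 made up 25.1% to 39.4% of each bar except that of HB-4, where it was 0.0983% and the total of 5652 FPKM was within the range of the others.

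The mean level of TNNC1 differed less between the groups without HB-4. The means were 1530.3 ± 839 FPKM over the HB libraries and 1877 ± 392 FPKM over the LB libraries (SD, n = 6), and 1835 ± 428 FPKM in HB without HB-4 (SD, n = 5). The log2 difference of HB against LB in edgeR's quasi-likelihood test was -0.27 ± 0.72 (SE), with an adjusted p of 0.991. Without HB-4 it was 0.00 ± 0.20, with a 95% interval from -0.43 to 0.44. The means of TNNC2 were 4238 ± 828 FPKM over the HB libraries and 3575 ± 297 FPKM over the LB libraries (SD, n = 6). Its log2 difference was 0.29 ± 0.16 (SE) and did not pass the threshold (edgeR adjusted p 0.977). Without HB-4 the HB mean of TNNC2 was 3957 ± 513 FPKM (SD, n = 5) and the log2 difference 0.18, with an interval from -0.12 to 0.48.

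Of the troponin I genes analysed, TNNI1 and TNNI2, the fast TNNI2 made up almost all of the level. The cardiac troponin I gene TNNI3, on the heart marker list, had no row, so the cardiac share is not known. TNNI2 (gene number 101793157, 898 bases) held 4585 FPKM at the lowest, 4704 at the median and 6614 at the highest in HB, and 4187, 4394 and 4853 FPKM in LB. HB-4 was again highest, and the next HB library held 5110 FPKM, above the highest LB library. The coefficient of variation of TNNI2 was the lowest of the members in LB, at 5.02%, and in HB without HB-4, at 4.45%. Over all 6 HB libraries it was 15.5%, above the 10.8% of TNNT3. The median over the 10384 genes averaging 1 FPKM or more was 17.8% in LB and 16.9% in HB without HB-4. The means were 5059 ± 785 FPKM over the HB libraries and 4454 ± 223 FPKM over the LB libraries (SD, n = 6), a log2 difference of 0.22 ± 0.13 (SE, edgeR adjusted p 0.977). Without HB-4 the HB mean was 4748 ± 211 FPKM (SD, n = 5), and the log2 difference of 0.12 had an interval from -0.11 to 0.36. In the reference gene table the span of TNNI2 overlaps the end of an unnamed neighbour, LOC113843797, which had at most 16 counts per library.

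TNNI1 (gene number 101803548, 2976 bases) varied more in LB than in HB, with a coefficient of variation of 68.2% against 34.6%. It held 2.70 FPKM at the lowest, 5.92 at the median and 8.15 at the highest in HB, and 1.88, 10.7 and 18.6 FPKM in LB. The lowest HB library was HB-4. In LB the values were spread out: LB-1, LB-3 and LB-6 held 12.7, 18.6 and 14.9 FPKM, LB-2 held 8.68 FPKM, and LB-4 and LB-5 held 1.88 and 2.61 FPKM, under every HB library. The means were 5.68 ± 1.97 FPKM over the HB libraries and 9.90 ± 6.75 FPKM over the LB libraries (SD, n = 6), a log2 difference of -0.77 ± 0.48 (SE, edgeR adjusted p 0.977) with an interval from -1.80 to 0.27. The direction was the same without any single library, with log2 differences from -0.98 to -0.49, and it was -0.62 without HB-4. TNNI1 rested on 135 to 2034 counts per library and made up 0.0408% to 0.424% of the summed level of TNNI1 and TNNI2. This share depends on the model lengths, which were not tested. In LB-3, where it was highest, TNNI1 had 2034 counts and TNNI2 144066.

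Over the genes analysed, troponin T had the highest level of the subunits and a trace of the cardiac form. TNNT3 (gene number 101793837, 1303 bases) held 6657 FPKM at the lowest, 7337 at the median and 8859.9 at the highest in HB, and 5960.1, 7184 and 7817 FPKM in LB. The groups overlapped over most of their range, and HB-4 with 7646 FPKM did not stand apart. The means were 7427 ± 802 FPKM over the HB libraries and 6984 ± 669 FPKM over the LB libraries (SD, n = 6), a log2 difference of 0.13 ± 0.14 (SE, edgeR adjusted p 0.977). The table gives reads per gene, so the splice forms of TNNT3 were not resolved.

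TNNT2 (gene number 101803953, 1250 bases) was the most variable member. It held 1.31 FPKM at the lowest, 2.68 at the median and 16.5 at the highest in HB, and 1.46, 3.35 and 11.6 FPKM in LB. Its level was set by few libraries: HB-6 held 16.5 and LB-1 11.6 FPKM, and the next highest in HB was HB-5 with 5.76 FPKM. The coefficient of variation was 116% in HB and 86.1% in LB. The means were 5.04 ± 5.86 FPKM over the HB libraries and 4.40 ± 3.79 FPKM over the LB libraries (SD, n = 6), a log2 difference of 0.18 ± 0.69 (SE, edgeR adjusted p 0.992). The direction turned without HB-6, to -0.64, and stayed without LB-1, at 0.84. Without LB-5 the difference was -0.0005. TNNT2 had 44 to 774 counts per library and made up 0.0180% to 0.222% of the summed level of TNNT2 and TNNT3. That sum leaves out the slow form, TNNT1.

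None of the 6 members separated the HB and LB groups. All 6 passed the filter on low counts, 0 had an adjusted p under 0.05 in edgeR, where 0.00% of the 12577 genes tested did, and 0 had an unadjusted p under 0.05, where 4.60% of all genes did. DESeq2 called 0 members, where it called 1 gene of 14981, or 0.00668%. Without HB-4, 0 members passed in edgeR, and 0 had an unadjusted p under 0.05, where 4.24% of all genes did. Without some other single libraries an unadjusted edgeR p fell under 0.05. It was 0.033 and 0.045 for TNNI1 without LB-4 and LB-5, 0.047 for TNNI2 without LB-1 and 0.048 for TNNC2 without HB-1. The adjusted p in these runs was 0.953 or more. The HB and LB values did not overlap for 0 members and for 0.0954% of all genes. The log2 difference was positive for 4 of 6 members, where it was positive for 49.9% of all genes, and for 5 of 6 without HB-4, where the share of all genes was 48.5%. The member that turned positive was TNNC1, at 0.0031 ± 0.20 (SE), which is far within its SE and gives no direction. The median of the members was 0.15, and 0.12 without HB-4, where the median of all genes was 0.00 and -0.01. In the authors' deposited table the adjusted p of each member was 1.00 to 3 digits, and their unadjusted p was smallest for TNNC2 at 0.0736.

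**Figure D3:**
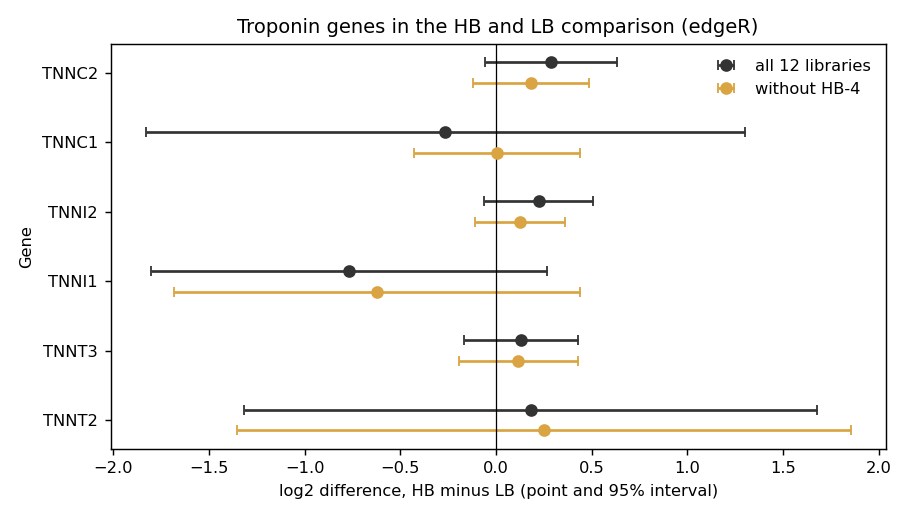
Log2 difference of HB against LB for each troponin gene in edgeR, with its 95% interval, over all 12 libraries (dark) and without HB-4 (yellow). Every interval holds 0, and that of TNNC1 went from -1.83 to 1.299 with HB-4 and from -0.43 to 0.44 without it.

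Ratios within a library remove its scaling, and they set the slow or cardiac form against the fast form and the subunits against each other. The log2 ratio of TNNC1 to TNNC2 averaged -2.61 ± 3.63 over HB and -0.96 ± 0.35 over LB (SD, n = 6, exact two-sided permutation p 0.238, adjusted p 0.680). HB-4 lay at -9.99, and the other HB libraries at -1.58 to -0.72, within or just under the LB range of -1.54 to -0.62. Without HB-4 the HB mean was -1.13 ± 0.39 (SD, n = 5) and the HB minus LB difference was -0.17 in place of -1.65. The log2 ratio of TNNI1 to TNNI2 averaged -9.87 ± 0.74 over HB and -9.25 ± 1.37 over LB (SD, n = 6, exact permutation p 0.340). HB-4 was lowest in HB at -11.25, close to the lowest LB library at -11.22, and without it the difference was -0.34 in place of -0.62. The log2 ratio of TNNT2 to TNNT3 averaged -11.18 ± 1.36 over HB and -11.01 ± 1.02 over LB (SD, n = 6, exact permutation p 0.823).

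The balance of the subunits was narrow among the fast genes and wide between TNNI1 and TNNC1. TNNI2 to TNNC2 had a log2 ratio of 0.26 ± 0.22 over HB and 0.32 ± 0.08 over LB (SD, n = 6, exact permutation p 0.580). TNNT3 to TNNC2 had 0.82 ± 0.23 over HB and 0.96 ± 0.13 over LB (SD, n = 6, exact permutation p 0.238). The lowest value of TNNT3 to TNNC2 was that of HB-4, at 0.44, where the other libraries held 0.71 to 1.14. The HB minus LB difference of this ratio was -0.14, and -0.06 without HB-4. Troponin T was summed over TNNT2 and TNNT3, without TNNT1, and troponin C over both its genes. The troponin T to troponin C ratio of HB-4 was then 1.35, within the 1.02 to 1.56 of the other 11 libraries. The ratio of troponin I, summed over TNNI1 and TNNI2, to troponin C was 1.17 in HB-4 and 0.707 to 0.964 elsewhere. Within the slow and cardiac genes, the log2 ratio of TNNI1 to TNNC1 averaged -7.00 ± 2.98 over HB and -7.97 ± 1.57 over LB (SD, n = 6, exact permutation p 0.613), and it lay at -1.04 in HB-4 and between -10.2 and -6.31 elsewhere. Without HB-4 the direction turned: the HB mean was -8.19 ± 0.66 (SD, n = 5), and the HB minus LB difference was -0.22 in place of 0.97. Of the 6 ratios 0 passed at an adjusted p under 0.05, and 0 had an unadjusted p under 0.05. The smallest p that 924 assignments allow is 0.00216.

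**Figure D4:**
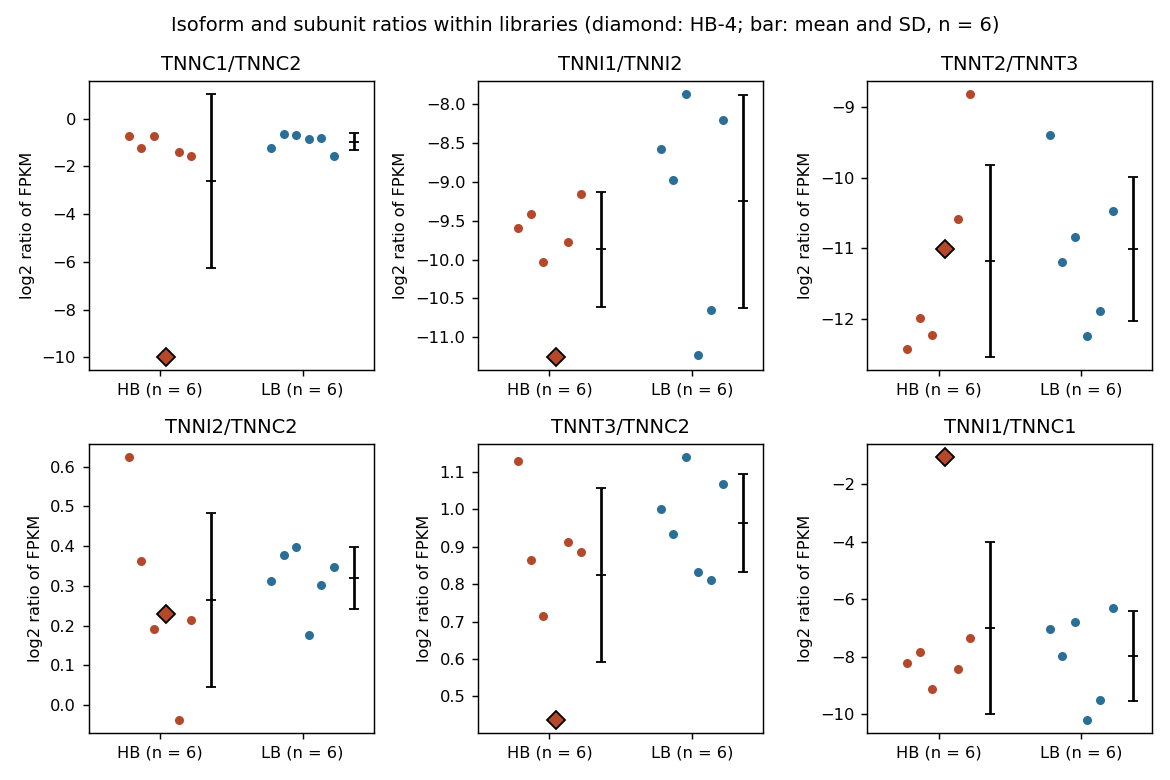
Log2 ratio of FPKM within each library for the 6 pairs of troponin genes, in HB and LB, with the mean and SD of each group (n = 6) beside the points. HB-4 (diamond) lay at -9.99 for TNNC1 to TNNC2 and at -1.04 for TNNI1 to TNNC1, apart from the other HB libraries.

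The members' levels were then set against each other across libraries. Of 15 pairs over the 12 libraries, 0 had an adjusted p under 0.05 for Pearson's r or Spearman's rho of log2 FPKM (permutation test), while 4 and 2 had an unadjusted p under 0.05. TNNT2 and TNNT3 had rho 0.66 and r 0.59 (permutation p 0.0242 and 0.0447, adjusted p 0.319 and 0.168), and r was 0.65 without the libraries with the most extreme TNNT2, HB-6 and LB-1. TNNC1 and TNNT2 had rho -0.60 (permutation p 0.0425, adjusted p 0.319) and r -0.12 (permutation p 0.748, adjusted p 0.802). Without HB-4 and LB-6, r of this pair was -0.69. TNNC1 and TNNC2 had r -0.74 and rho -0.29 (permutation p 0.0376 and 0.365, adjusted p 0.168 and 0.497). The r of this pair rests on HB-4, since it was -0.22 without HB-4 and LB-6 and -0.03 without HB-4 alone. The same held for TNNC1 and TNNI2, with r -0.89 and rho -0.41 (permutation p 0.0360 and 0.185, adjusted p 0.168 and 0.332), where r was -0.26 without HB-4 and LB-6 and -0.05 without HB-4 alone. TNNC2 and TNNI2 had r 0.73 and rho 0.40 (permutation p 0.0229 and 0.200, adjusted p 0.168 and 0.332). Their r was 0.27 without HB-4 and HB-5, 0.20 without HB-4 alone, and 0.75 without HB-4, HB-1 and HB-5. Thus r fell without HB-4 in 3 of the 4 pairs counted for r, but for TNNC2 and TNNI2 the fall also depended on HB-1 and HB-5. The values of a library share its scaling, which can move correlations between abundant genes.

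In the reference gene table (the RefSeq assembly of the Pekin duck, which may not be the assembly used for alignment) the troponin I and T genes stand in pairs. TNNI2 and TNNT3 lie on the same chromosome with 2 protein-coding genes between them, LSP1 and PRR33. TNNI1 and TNNT2 lie on another chromosome with 1 protein-coding gene between them, LAD1. The paired fast genes TNNI2 and TNNT3 had rho 0.51 (permutation p 0.0928, adjusted p 0.332) and r 0.36 (permutation p 0.237, adjusted p 0.443). The paired genes TNNI1 and TNNT2 had rho 0.55 (permutation p 0.0681, adjusted p 0.332) and r 0.51 (permutation p 0.0945, adjusted p 0.236). Without HB-1 and HB-4, r of the fast pair was 0.49, and without LB-3 and LB-4, r of the slow and cardiac pair was 0.48.

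The genes whose order over the 12 libraries was most like that of a member were ranked by rho among the 9944 genes above, and they are given as a description of these libraries. A gene chosen in this way tends to share the member's highest and lowest libraries. High rho values can also arise by chance among so many genes, which was not tested. Closest to TNNT2 were the dystrophin gene DMD (rho 0.88), TPD52 (0.87), the cardiac actin gene ACTC1 (0.87), GAS1 (0.86) and the AMP deaminase gene AMPD3 (0.85). ACTC1, which like TNNT2 is made in heart and in embryonic skeletal muscle, held 203 FPKM in LB-1 and 66.1 FPKM in HB-6, the libraries with the most TNNT2, and 4.99 to 32.0 FPKM in the other 10. Of 8 markers of developing or regenerating muscle, 6 had a row, and their summed level was 29.9 to 49.3 FPKM in HB and 37.2 to 46.6 FPKM in LB, with 41.3 FPKM in LB-1 and 37.7 FPKM in HB-6. The sum hides differences between these markers. In LB-1 CHRNG and CHRND held the highest LB values, 7.87 and 17.0 FPKM, and PAX7 and MYMK the lowest, 1.23 and 0.39 FPKM. MYOG and NCAM1 lay inside the range of the other LB libraries there. Of 10 heart markers, 7 had a row, with a summed level of 3.21 to 27.8 FPKM in HB and 4.17 to 15.1 FPKM in LB. GATA4 had 0 counts in all 12 libraries, LB-1 held 4.82 FPKM of the heart list, and HB-6 held the 27.8 FPKM, of which the atrial myosin gene MYH6 made 16.9 FPKM. The part of these cells in the TNNT2 level was not tested.

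**Figure D5:**
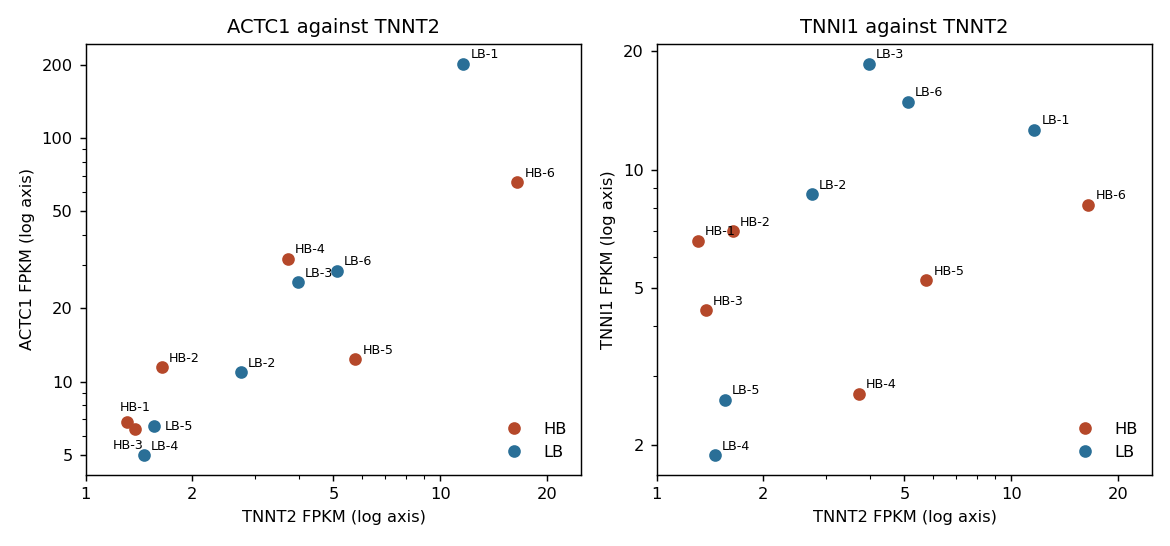
FPKM of the cardiac actin gene ACTC1 (left) and of TNNI1 (right) against that of TNNT2 in the 12 libraries, all axes log. LB-1 and HB-6 held the most TNNT2, at 11.6 and 16.5 FPKM, and the most ACTC1, at 203 and 66.1 FPKM, while TNNI1 was highest in LB-3.

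Closest to TNNC1 were EHBP1 (rho 0.85), NAALAD2, TP53I11, R3HDM4 and TRIM27 (0.83). In HB-4 EHBP1 held 12.5 FPKM, against 13.3 to 20.7 FPKM in the other libraries, TP53I11 held 14.1 FPKM, against 17.1 to 105.9 FPKM, and R3HDM4 held 28.5 FPKM, against 29.3 to 41.0 FPKM. NAALAD2 with 1.597 FPKM and TRIM27 with 1.16 FPKM lay within the 0.83 to 2.65 and 1.01 to 2.09 FPKM of the other libraries. Closest to TNNC2 were TMEM184B (rho 0.86), SEMA6B, SLC37A2, TRIM35 and PCSK2 (0.81). Closest to TNNI2 were HIST2H2AC (rho 0.85), the coronin gene CORO6 (0.84), TENT5A, the Notch ligand gene JAG1 and PNO1 (0.81), and CORO6 held 830.2 FPKM in HB-4, against 196 to 466 FPKM in the others. Closest to TNNI1 were NUDT4 (rho 0.89), RADIL, CNPY3, UTP23 and LRRC47 (0.83). Closest to TNNT3 were PDE4DIP (rho 0.87), MRC1, the clathrin heavy chain gene CLTC, SYNPO2L and WDR81 (0.82).

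The partners of troponin on the thin filament and in the contractile machinery also did not pass the threshold. Of 40 listed genes, 32 had a row, as 33 gene models, and 27 models were tested. In edgeR 0 of them had an adjusted p under 0.05, and 2 had a higher and 1 a lower level in HB at an unadjusted p under 0.05, where 2.34% and 2.27% of all genes did. Without HB-4 these counts were 1 higher and 2 lower, where 274 and 263 of all 12675 genes were. The log2 difference was positive for 20 of 27 models with a median of 0.06, where it was positive for 49.9% of all genes. Without HB-4 it was positive for 13 of 27 with a median of -0.03, where the share of all genes was 48.5%. TPM1, the main tropomyosin of the muscle, held 8583 ± 2209 FPKM over the HB libraries and 8017 ± 1249 FPKM over the LB libraries (SD, n = 6), and was lowest in HB-4 at 4972 FPKM. TPM2, the beta tropomyosin, reached 2038 FPKM in HB-4, against 81.3 to 478 FPKM in the others. The log2 difference of TPM2 was 0.88, and -0.70 once HB-4 was left out. TPM3 held at most 0.72 FPKM and was not tested.

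HB-4 also stood apart for several of these partner genes. MYBPC1, which encodes the slow myosin-binding protein C, reached 293 FPKM in HB-4, against 0.52 to 40.0 FPKM in the others. The log2 difference of MYBPC1 was 2.20, and -1.10 once HB-4 was left out. LMOD3, a nucleator of actin filaments, held 71.9 FPKM in HB-4, against 21.01 to 43.2 FPKM in the others, with a log2 difference of 0.71 ± 0.21 (SE, edgeR adjusted p 0.977). Without HB-4 it was 0.50. The myosin light chain kinase gene MYLK2 and TPM4 had log2 differences of 0.54 ± 0.23 and 0.35 ± 0.23. MYL4, a myosin light chain of atrial and embryonic muscle, had the lowest unadjusted p of the partners that were lower in HB, with 0.38 ± 0.25 FPKM over the HB libraries and 1.08 ± 0.64 FPKM over the LB libraries (SD, n = 6, edgeR adjusted p 0.977). MYBPH, 1 model of MYH7B and ACTC1 followed with log2 differences of -0.58, -0.83 and -1.13, and that of ACTC1 was 0.63 without LB-1. The MYH7B model held at most 0.29 FPKM from 51 counts, in LB-1, and its difference was -0.20 without that library. The other MYH7B model held 0.01 to 0.29 FPKM in HB, highest in HB-4, and 0 to 0.33 FPKM in LB. The skeletal actin gene ACTA1 had a log2 difference of 0.20 ± 0.20.

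Beside TNNC1 the markers of slow fibres had uneven levels. All 8 slow muscle markers had a row, as 9 models, and their summed level was 648 to 1117 FPKM in HB and 803 to 1179 FPKM in LB, while HB-4 held 994 FPKM. The calsequestrin gene CASQ2 made up most of it, with 603 to 1097 FPKM, so the sum mainly follows this gene and says little of the other slow markers. Whether CASQ2 marks slow fibres in this muscle was not tested, and CASQ1, on the fast list, had no row. The slow myosin heavy chain gene MYH7 and the slow light chain genes MYL2 and MYL3 held at most 0.57, 0.74 and 0.30 FPKM in any library. These values came from at most 16, 26 and 19 counts. In HB-1, 4 counts of MYH7 gave 0.15 FPKM, where 6 counts of 1 MYH7B model gave 0.03 FPKM. The MYH7 model is thus much shorter than that MYH7B model and may be partial, so its level may not stand for slow myosin. The Z-disc gene MYOZ2 and the slow calcium pump gene ATP2A2 were highest in HB-4, at 92.1 and 12.2 FPKM, against 12.04 to 71.3 and 5.99 to 10.95 FPKM in the others. CSRP3 held 21.2 FPKM in LB-1 and at most 3.45 FPKM in the other libraries. Of 8 fast muscle markers 3 had a row, with a summed level of 11577 to 15290 FPKM in HB and 10643 to 15778 FPKM in LB. The fast light chain gene MYL1 made up most of it, at 11395 FPKM in HB-4, against 10512 to 15706 FPKM in the others. The other fast markers were highest in HB-4, where MYLK2 held 180.4 FPKM, against 72.0 to 156.2 FPKM, and the calcium buffer gene PVALB held 1.09 FPKM from 73 counts, against at most 0.03 FPKM from 2 counts.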

How the data were processed

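Read counts per gene model and library were used as the authors deposited them, from 1 table with 12 count columns. Per the submitters' processing notes, fastp 0.18.0, HISAT2, StringTie 1.3.1 and DESeq2 were used. Genome build, annotation and counting step, strand included: not given in the sources used here. Per the file headers, the authors' table also gives each group's mean FPKM, the log2 fold change and the p-value with its adjusted value. FPKM per library was computed here from count, library total and the length that the deposited means imply (the lengths from both means differed by at most 0.463% over 10188 genes). The 12 further columns with values per library were not used. The column names give a group and a number, which ties a library to no sample, and 0 pairs of libraries were identical.

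The fit across all genes used edgeR 4.0.16 and its quasi-likelihood F test (R 4.3.3, TMM scaling, filterByExpr, Benjamini-Hochberg adjustment at 0.05), and members were read from that fit. The SE is the absolute log2 difference divided by the square root of F. DESeq2 1.42.0 and limma 3.58.1 served as alternatives, with other scalings and filters and the removal of each library. The edgeR fit was tried on simulated counts of 12577 genes, of which 200 were changed by a known fold. It called 51% of the 2-fold and 87.5% of the 4-fold changes, and 1.92% and 2.78% of its calls were false. These shares are averages over genes drawn at random, so they do not hold for a single member. The counts were drawn independently for each gene, so no simulated library stood apart over several genes as HB-4 did. The shares thus need not hold for these 12 libraries. The size of change that could go uncalled differs between members. The 95% intervals of TNNC2, TNNI2 and TNNT3 reached log2 differences of 0.63, 0.51 and 0.43 at the top. Those of TNNC1, TNNI1 and TNNT2 were wider, from -1.83 to 1.299, -1.80 to 0.27 and -1.32 to 1.68. Ratios used log2 FPKM with a pseudocount of 0.01 and exact permutation tests, adjusted over 6 ratios, and correlations used 100000 permutations (scipy 1.17.1). The ratios and pairs planned with TNNT1 were not run, which leaves 15 pairs.

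Symbols come from the table, or, where it has none (the tropomyosins), from a RefSeq gene table that matched 14057 of 15747 gene numbers. No sequences are printed. Named genes were all members, the 5 most alike to each by rho, and of the partner list the 4 with the smallest p per direction with TPM1, TPM2, TPM3, ACTA1 and ACTC1, while other genes are named from marker lists or were chosen after their values were seen. The members and lists were chosen with earlier results of these data known.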

Additional observations from a re-analysis of the deposited data

Results flagged for a closer look

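A library was picked out where its gap to the nearest library of its group divided by the group's range exceeded Dixon's 95% critical value for 6 samples. Chance gives about 1 in 20 groups if their values are normally spread and independent. The 48 groups looked at, over members, ratios and the named partner genes, share genes and libraries. Some partners were also picked by their p with HB-4 included, so the number of flags cannot be set against that rate. Of 11 such values 7 belonged to HB-4. In HB-4 these were TNNI2 at 6614 FPKM, the log2 ratio of TNNC1 to TNNC2 at -9.99, that of TNNI1 to TNNC1 at -1.04, LMOD3 at 71.9 FPKM, MYBPC1 at 293 FPKM, TPM2 at 2038 FPKM and TPM3 at 0.17 FPKM. The TPM3 value is 3 counts against 0 in the other 5 HB libraries, which lies at the limit that a count of 0 allows, so it does not set HB-4 apart. TNNT2 stood apart in HB-6 at 16.5 FPKM and in LB-1 at 11.6 FPKM, and ACTC1 in LB-1 at 203 FPKM. ACTA1 stood apart in HB-5 at 58166 FPKM.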

How the results depend on the processing

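The counts of called members, partners, ratios and pairs were 0 under every alternative run. Over all genes edgeR called 0, DESeq2 called 1, and DESeq2 without HB-4, an alternative added after the data had been seen, called 4. Of the values for single genes, ratios and pairs, 435 kept their direction and their side of the threshold and 22 changed sign. Keeping the side of the threshold was nearly given, since the smallest adjusted p of a main run among these values was 0.319 (permutation test of rho). Pearson's r was not among them, and its smallest adjusted p was 0.168 (permutation test). Many of these runs left out only a single library, so they are not independent. The log2 difference of TNNC1 was 0.0031 without HB-4 and 0.0016 with DESeq2 as well, and from -0.4501 to 0.0031 without single libraries, while limma with pseudocounts of 1 and 0.1 FPKM gave -1.38 and -1.42 and voom with sample weights -0.46, against -0.27 in edgeR. That of TNNT2 was -0.0262 and -0.0736 in limma with pseudocounts of 1 and 0.1 FPKM, -0.18 in voom with sample weights, and from -0.64 to 0.84 without single libraries. Those of MYBPC1 and TPM2 were -0.22 and -0.32 in voom, -1.10 and -0.70 without HB-4, and -1.10 and -0.70 with DESeq2 as well. Without single libraries ACTC1 went from -1.79 to 0.63, TPM1 from -0.0004 to 0.25, MYBPC1 from -1.10 to 3.26 and TPM2 from -0.70 to 1.19. The differences in log2 ratio went from -0.64 to 0.15 for TNNT2 to TNNT3, from -0.13 to 0.0053 for TNNI2 to TNNC2 and from -0.22 (without HB-4) to 1.40 for TNNI1 to TNNC1, whose difference in medians was -0.52. The rho of TNNI2 and TNNT2 was -0.0091 without HB-4. The cause of these changes was not tested beyond the library left out. No paired analysis was possible because the labels give no number that links HB to LB samples. TNNT2, with as few as 44 counts in a library, is the member most limited by depth.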
